A study of Mus musculus with 25 samples.

Results

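The right atrium (RA) of the mouse heart was compared between embryonic day 14.5 (E14.5) and postnatal day 4 (P4), the interval in which the atrium passes from fetal to postnatal circulation. The comparison used the 3 RA libraries labelled E14.5 and the 3 labelled P4, 6 of the 25 libraries in the series, and all 20870 genes listed for them. Of the rest, the 3 RA libraries of postnatal day 14 (P14) and the 6 libraries of sinoatrial node (SAN) at E14.5 and P4 were used to place the RA values.

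Every one of these groups came from mice that carry an Hcn4-GFP reporter on a mixed strain background. No other allele or agent is given for them, so E14.5 and P4 differ by stage alone in the labels. Whole embryos or hearts were embedded for cryosectioning, the atrial tissue was outlined by hand under the microscope and cut out with a laser, and sections were stained for Hcn4 protein afterwards. A captured region can hold myocytes, fibroblasts, endothelium and the outer cell layer together. In such bulk samples, fewer cells of a type and less RNA per cell cannot be told apart. The labels do not say which libraries came from the same heart, so each p-value refers only to the spread among libraries, which may be technical. That spread was estimated within groups over 18 libraries, RA and SAN at E14.5, P4 and P14, and so not from the compared libraries alone.

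Atrial myocytes are contracting cells that also secrete natriuretic peptides. Before birth the heart grows by division of its myocytes and relies to a large part on glucose and lactate. After birth oxygen and dietary fat become abundant, and mouse cardiomyocytes largely leave the cell cycle, turn to fatty acid oxidation, exchange fetal for adult contractile isoforms and enlarge their sarcoplasmic reticulum. The fibroblasts around them lay down a collagen network. The lists described below follow these processes.

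Levels are on a counts-per-million scale (CPM), and differences are P4 minus E14.5 on log2(CPM + 1), with the standard error (SE) of the fit. A gene was called, and is said to have risen or fallen, at an adjusted p under 0.05 by limma with Benjamini-Hochberg adjustment over the 17568 genes tested. The 6 libraries held between 5101711 and 12357437 recovered reads, and a single read was worth 0.0891 to 0.215 CPM. A count of 0 allows up to 3 reads, which is 0.267 to 0.646 CPM per library, and this covers counting error only because the RNA was amplified. P4 replicate 3 stood apart from all other RA libraries. It had the fewest reads and the fewest detected genes (15657), and 883 genes were at 0 in it alone, against 23 to 367 for each other RA library. On the second principal component of the 9 RA libraries it lay at −113.6, with the others between −6.24 and 31.7. Counts of calls are therefore given with and without it, and counts without another library are added where they differ by over 1.5 times. The E14.5 and P4 groups each mixed libraries of male and female type, with the Y-linked gene Ddx3y at 89.5, 0 and 0 CPM in the E14.5 libraries and 0, 110.2 and 106 CPM in the P4 libraries, in the order of their numbers.

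Markers of atrial myocytes were abundant at both stages. The summed level of 8 such markers was 28353 to 34366 CPM at E14.5 and 25017 to 32534 CPM at P4. The ventricular light chain gene Myl2 was at 4.96, 11.6 and 0.178 CPM at E14.5 and 0.509, 9.22 and 24.5 CPM at P4. The node factor Isl1 was at 0, 0 and 0.445 CPM and 0.712, 0.314 and 3.87 CPM. Of 8 node markers 1 was called, Tbx3, which rose from 1.80, 1.66 and 2.40 to 5.49, 3.88 and 15.1 CPM (1.44 ± 0.34, adjusted p = 0.01). P4 replicate 3 held the highest P4 value of Tbx3, Isl1 and Myl2, and without it the Tbx3 call was lost (adjusted p = 0.079). The node factor gene Shox2, not called with all libraries (−0.56, adjusted p = 0.58), was then called lower (−1.34, adjusted p = 0.035).

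Between E14.5 and P4, 1193 genes were called (6.79% of those tested), 568 higher at P4 (3.23%) and 625 lower (3.56%). Without P4 replicate 3 the number was 788, with 436 higher and 352 lower, and 725 of the original calls were among them. Of the 1193 genes, 1184 had P4 libraries that did not overlap the E14.5 libraries, where the share over all genes tested was 26.2%. Calls and overlap come from the same values, so this count adds no support to the calls. The count also fell to 760 without E14.5 replicate 1 and 766 without E14.5 replicate 3, and 536 genes were called whichever of the 6 libraries was left out. The median difference over all genes was −0.11. The balance of higher and lower calls depended on the test and the scaling, with 611 higher and 300 lower in edgeR, 844 and 553 in DESeq2, and 417 and 841 when the levels of sarcomere genes were set equal, which moved the median to −0.23. For each list below that is given with 0 rises or 0 falls by limma, at most 4 members had an unadjusted p under 0.05 in that direction and edgeR called 0.

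**Figure D1:**
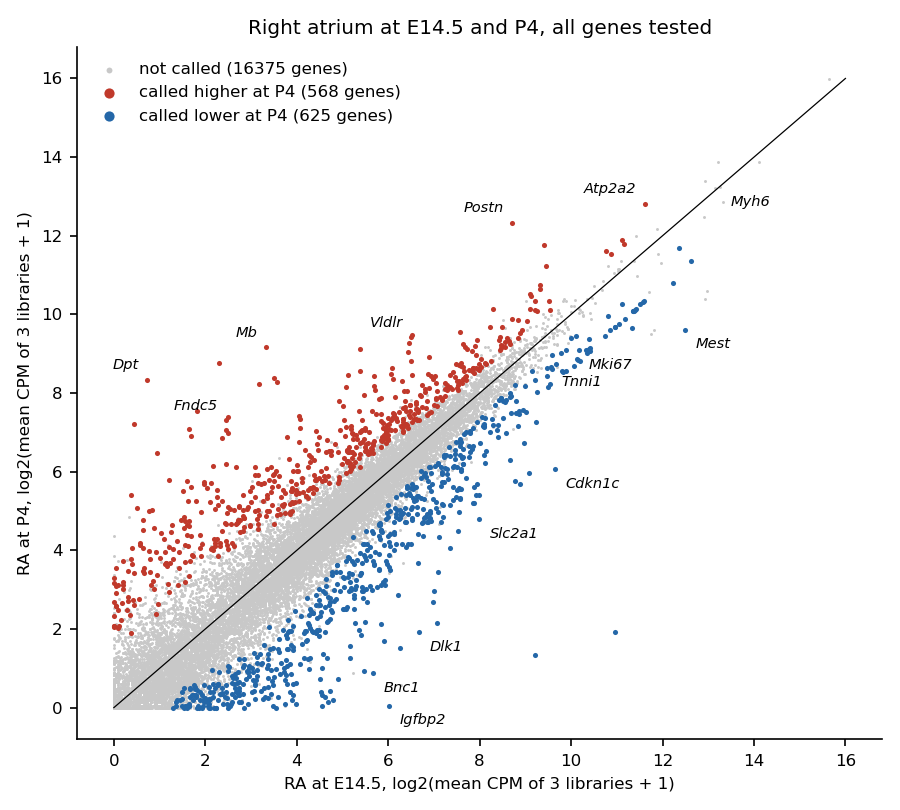
RA at E14.5 (horizontal) against RA at P4 (vertical), each point 1 of the genes tested, as log2 of the mean CPM of 3 libraries plus 1. The 568 genes called higher at P4 lie above the diagonal of equality and the 625 called lower lie below it, while Myh6 lies near the diagonal.

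Among the largest rises, 2 genes belonged to the oxygen and energy supply of muscle. Mb encodes myoglobin, the oxygen-binding protein of muscle cells. It stood at 10.8, 8.11 and 8.02 CPM in the E14.5 libraries and 616, 757 and 347 CPM in the P4 libraries, a difference of 5.79 ± 0.69 (adjusted p = 9.8e-06). Each P4 library was far above each E14.5 library, with P4 replicate 3 the lowest of its group. At P14 the values were 1417, 1596 and 1812 CPM. Fndc5, which encodes the membrane precursor of irisin, went from 3.50, 3.68 and 6.15 to 189.9, 194 and 87.6 CPM (4.81 ± 0.38, adjusted p = 4.3e-08) and rose further by P14 (1.84, adjusted p = 0.0054). Without P4 replicate 3 the differences were 6.11 for Mb and 5.18 for Fndc5.

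Both belonged to a list of 35 mitochondrial regulators and muscle energy genes, of which 8 rose and 0 fell (median 0.10). The rises numbered 6 without P4 replicate 3 and 5 without E14.5 replicate 3. Vldlr, the receptor that takes up triglyceride-rich lipoproteins, was at 91.1, 88.2 and 89.3 CPM at E14.5 and at 766, 626 and 651 CPM at P4 (2.91 ± 0.17, adjusted p = 7.7e-10), with little spread at either stage. Lpin1, a phosphatidate phosphatase that also acts as a transcriptional coactivator of fatty acid oxidation, rose by 1.89 ± 0.32 (adjusted p = 0.00058). The muscle creatine kinase gene Ckm rose by 1.81 ± 0.38 and the gene listed as 2310042D19Rik, now named Perm1, by 1.78 ± 0.40. The mitochondrial fusion genes Mfn1 and Mfn2 rose by 0.69 and 0.71, calls that were lost without P4 replicate 3 (adjusted p = 0.054 and 0.1).

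Of 35 genes of fatty acid uptake and oxidation, 5 rose and 0 fell (median 0.36), and 7 rose without P4 replicate 3, when Cpt1a, of mitochondrial fatty acid import, and the lipase gene Pnpla2 were called too (0.94 and 0.87). Leaving out any other of the 6 libraries gave 3. Lpl, the lipase that frees fatty acids from lipoproteins, rose from 219, 255 and 242 to 492, 628 and 641 CPM (1.29 ± 0.20, adjusted p = 0.00018). Acsl1, which activates fatty acids with coenzyme A, rose from 57.5, 45.7 and 47.5 to 289.7, 304 and 278 CPM (2.52 ± 0.25, adjusted p = 1.1e-06), and its 3 P4 values lay within a narrow range. The transporter genes Cd36 and Slc27a1 rose by 0.62 (adjusted p = 0.027) and 1.38 (adjusted p = 0.046), and Fabp3, the heart fatty acid binding protein gene, by 1.28 (adjusted p = 0.0099). Of 59 genes of the citric acid cycle and respiratory chain, 4 rose and 0 fell, and 47 of the 59 differences were above 0 (median 0.22). There were 5 rises without P4 replicate 3, but 2 without E14.5 replicate 2 or P4 replicate 1 and 1 without P4 replicate 2. Cox8b, a muscle isoform of a cytochrome oxidase subunit, had the largest, from 14.4, 19.7 and 10.7 to 70.2, 92.2 and 49.5 CPM (2.16 ± 0.39, adjusted p = 0.0011). The adenine nucleotide carrier gene Slc25a4 rose by 0.59, Ndufa1 by 0.89 and cytochrome c (Cycs) by 0.73. With sarcomere genes set equal, 3 of the fatty acid genes and 2 of the respiratory genes were called.

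The called falls among the metabolic lists were all in genes of glucose use. Of 37 genes of glucose uptake, glycolysis and glycogen, 9 fell and 3 rose (median −0.19), and 6 fell and 2 rose without P4 replicate 3. Without E14.5 replicate 3, 5 fell and 1 rose, and 1 rose without P4 replicate 1 or 2. Slc2a1, the glucose transporter of fetal and proliferating cells, stood at 216, 262 and 284 CPM at E14.5 and 26.0, 35.7 and 18.7 CPM at P4 (−3.23 ± 0.26, adjusted p = 4.3e-08), and at 17.8, 33.2 and 25.2 CPM at P14. Slc2a4, the insulin-responsive transporter of muscle and fat, rose from 21.0, 22.8 and 17.3 to 49.4, 81.3 and 35.3 CPM (1.33 ± 0.36, adjusted p = 0.025), and the insulin receptor gene Insr rose by 0.79 (adjusted p = 0.0072). In neither transporter did the stages overlap.

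Among enzymes of glycolysis, Pgam1 fell from 374, 399 and 599.8 to 157, 134 and 139 CPM (−1.64 ± 0.20, adjusted p = 1.3e-05), and Eno1 and Gapdh fell too (−1.37, adjusted p = 0.00015, and −1.27, adjusted p = 5e-05). These 3 genes have many processed pseudogenes, and how reads were divided among the copies is not given in the sources used here. Pkm2, the pyruvate kinase gene as listed, fell (log2 difference −0.78, adjusted p = 0.012), a call lost without P4 replicate 3 (adjusted p = 0.096). Gyg, which primes glycogen, fell from 467, 646 and 445 to 202, 172 and 172 CPM (−1.49 ± 0.17, adjusted p = 6.8e-06). Against them, the muscle phosphofructokinase gene Pfkm rose by 1.15 ± 0.20 (adjusted p = 0.00069) and Pdk4, whose kinase restrains pyruvate entry into mitochondria, by 0.92 ± 0.26 (adjusted p = 0.034, and 0.086 without P4 replicate 3).

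**Figure D2:**
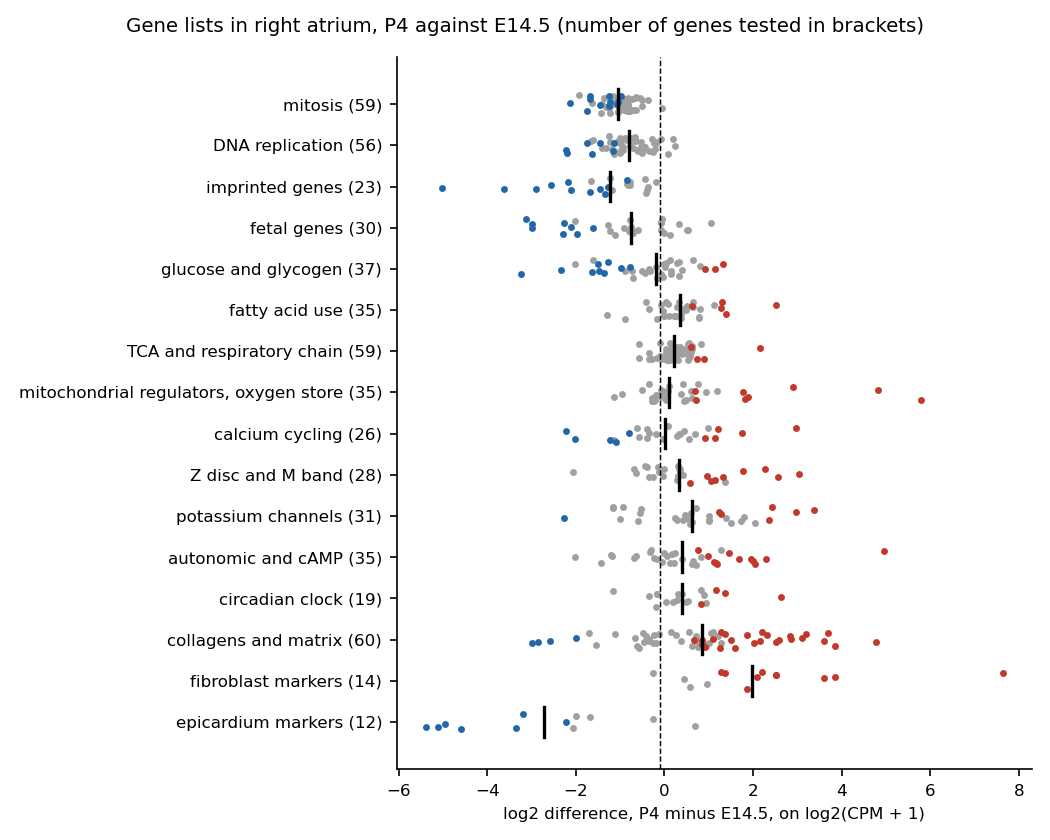
The log2 difference between P4 and E14.5 for each tested gene of 16 lists, 1 point per gene, with genes called higher in red, genes called lower in blue and genes not called in grey. Black bars are list medians and the dashed line is the median of all genes, −0.11; the mitosis list lies wholly to the left of 0 and the fibroblast list has its median at 1.97.

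In the calcium cycle of the myocyte, 5 of 26 genes rose and 5 fell, and 5 and 3 without P4 replicate 3. Without E14.5 replicate 1 or P4 replicate 2, 3 fell, and 2 without E14.5 replicate 2. Genes of the sarcoplasmic reticulum were among the rises. Atp2a2, the pump that refills the store, went from 2771, 3593 and 3051 CPM at E14.5 to 7285, 7410 and 6846 CPM at P4 (1.20 ± 0.19, adjusted p = 0.00019). Sln encodes sarcolipin, a small inhibitor of that pump in atrial muscle, and rose from 106, 88.6 and 75.9 to 816, 739.6 and 586 CPM (2.97 ± 0.29, adjusted p = 7e-07). The release channel gene Ryr2 rose by 0.91 ± 0.20 (adjusted p = 0.0065), its partner triadin (Trdn) by 1.14 ± 0.22 (adjusted p = 0.0018) and S100a1, a calcium sensor that binds both pump and channel, by 1.75 ± 0.33 (adjusted p = 0.0014).

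Of the falls, Slc8a1, the sodium-calcium exchanger of the cell surface, was at 555, 616 and 352 CPM at E14.5 and at 338, 253 and 269 CPM at P4 (−0.79 ± 0.20, adjusted p = 0.019, and 0.071 without P4 replicate 3). The inositol trisphosphate receptor gene Itpr2 fell (log2 difference −1.09, adjusted p = 0.0044), Camk2a fell (log2 difference −1.22, adjusted p = 0.009) and the phosphatase inhibitor gene Ppp1r1a fell (log2 difference −2.22, adjusted p = 0.0047). Casq1, the skeletal form of calsequestrin, was at 63.4, 12.4 and 20.7 CPM at P4, and its call (−2.01, adjusted p = 0.042) was lost in 5 of the 6 fits that left out a library.

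Of 17 thin filament genes 4 rose and 3 fell (median −0.34), and 2 rose and 1 fell without P4 replicate 3. No gene of the list rose by limma without E14.5 replicate 3, 1 rose without P4 replicate 1 or 2, and 2 without E14.5 replicate 2. The falls numbered 1 without E14.5 replicate 1 or 3. The slow skeletal troponin genes, which the fetal heart uses, were among the falls. Tnni1 was at 851, 601 and 823 CPM at E14.5, 434, 494 and 286 CPM at P4 and 29.8, 40.7 and 26.1 CPM at P14, a difference of −0.92 ± 0.22 in the perinatal step (adjusted p = 0.012, and 0.096 without P4 replicate 3) and of −3.60 in the later step (adjusted p = 1.7e-09). Tnnt1 fell from 61.1, 62.1 and 67.5 to 19.5, 14.0 and 7.75 CPM (−2.21 ± 0.43, adjusted p = 0.0022). Tnni3, the cardiac troponin I that replaces Tnni1 after birth, was listed at 0 to 4.61 CPM in every RA library, P14 included. Such values are low for heart tissue, how reads were assigned to this gene is not given in the sources used here, and the values are not read as the level of its expression.

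Tnnt2, the cardiac troponin T gene, also fell (−0.67 ± 0.19, adjusted p = 0.036, and 0.16 without P4 replicate 3), while Tpm1, a tropomyosin gene, rose (0.63, adjusted p = 0.034). Lmod2 and Tmod1, which nucleate and cap thin filaments, rose by 1.25 (adjusted p = 0.0053) and 0.80 (adjusted p = 0.021). The main myosin heavy chain genes, Myh6 and Myh7, did not pass the test. Myh6, the fast alpha chain of the atrium, was at 10280, 11380 and 7781 CPM at E14.5 and 10570, 9105 and 9242 CPM at P4 (−0.01, adjusted p = 0.98), and at 21150, 21930 and 18150 CPM at P14. Myh7, the slow beta chain, was at 1260, 1640 and 1315 CPM at E14.5 and 1783, 1247 and 1034 CPM at P4 (−0.08, adjusted p = 0.88). Both rose between P4 and P14, by 1.08 (adjusted p = 0.00063) and 1.29 (adjusted p = 0.00039). The 1 called gene of 15 thick filament genes was Myh7b, a further myosin heavy chain gene, which fell from 31.2, 54.0 and 26.9 to 5.39, 2.93 and 5.81 CPM (−2.72 ± 0.51, adjusted p = 0.0015).

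Of 28 genes of the Z disc and M band, 9 rose and 0 fell (median 0.32), and 8 rose without P4 replicate 3. Tcap, which ties titin to the Z disc, was at 12.4, 8.84 and 9.89 CPM at E14.5 and at 49.6, 48.6 and 61.5 CPM at P4 (2.26 ± 0.28, adjusted p = 2e-05). Xirp2, an actin-binding protein of the intercalated disc and Z disc, was at 54.5, 82.3 and 14.4 CPM at E14.5 and 274, 335 and 421 CPM at P4 (3.03 ± 0.44, adjusted p = 9.1e-05). Its lowest E14.5 value was in replicate 3, which was also the lowest for Myom2, an M band protein that rose by 2.56 ± 0.54 (adjusted p = 0.0041). Trim63, the ubiquitin ligase MuRF1, rose by 1.77 ± 0.22 (adjusted p = 1.9e-05). Fhl2 and Myoz2 rose by 1.31 and 1.05.

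Single electrical genes rose in several lists, where 3.23% of all genes tested rose. In the sodium channel and gap junction list, 4 of 22 genes rose and 0 fell, and 3 rose without P4 replicate 3. The median was 0.10, with 13 differences above 0 and 9 below. Leaving out E14.5 replicate 2 or 3 or P4 replicate 1 or 2 gave 2. Scn10a, a sodium channel gene, rose from 16.6, 14.9 and 8.02 to 80.0, 96.9 and 61.1 CPM (2.54 ± 0.68, adjusted p = 0.023) and was back at 11.4, 25.6 and 5.17 CPM at P14 (−2.64, adjusted p = 0.022). The call in the first step was lost in 4 of the 6 fits that left out a library, with an adjusted p of up to 0.12. Gja1, or connexin 43, rose from 188, 178 and 212 to 454, 386 and 456 CPM (1.16 ± 0.33, adjusted p = 0.033), and its call was lost whichever of the 6 libraries was left out, with an adjusted p of up to 0.11. Gja5, or connexin 40, had higher values in each P4 library (680.0, 689 and 642 against 363, 359.8 and 488 CPM) but did not pass (0.75 ± 0.63, adjusted p = 0.59). That SE reflects the spread within all 6 groups of the fit, SAN included, and not that of these RA values alone. The T-type calcium channel gene Cacna1g was the 1 call among 11 calcium channel genes (median 0.22, and −0.04 without P4 replicate 3). It rose from a mean of 9.77 ± 3.91 CPM (SD, n = 3) to 116, 65.9 and 24.5 CPM (2.5 ± 0.42, adjusted p = 0.00052).

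Of 31 potassium channel and related genes, 6 rose and 1 fell (median 0.63), and 6 and 0 without P4 replicate 3. The 1 fall, Kcnd2, was kept only when P4 replicate 1 was the library left out. Kcnip2, the subunit that brings the transient outward current to the membrane, was at 1.13, 1.47 and 0.535 CPM at E14.5, 28.5, 18.1 and 15.1 CPM at P4 and 66.4, 106 and 72.5 CPM at P14, with 3.38 ± 0.63 in the perinatal step (adjusted p = 0.0013). Kcnd2, a pore subunit of that current, fell from 21.1, 21.2 and 22.5 to 9.97, 4.71 and 0.645 CPM (−2.27, adjusted p = 0.045), and P4 replicate 3 held the lowest value. Without it the adjusted p was 0.28. Kcnj3 and Kcnj5 form the potassium channel that acetylcholine opens in atrial cells. Kcnj3 rose from 82.2, 124 and 61.0 to 335, 434 and 586 CPM (2.35 ± 0.32, adjusted p = 4.5e-05) and Kcnj5 from 192, 173 and 167 to 427, 359 and 482 CPM (1.24 ± 0.22, adjusted p = 0.00081). The pacemaker channel gene Hcn4 overlapped between the stages (14.3, 31.1 and 25.5 CPM at E14.5 and 12.9, 17.5 and 16.1 CPM at P4).

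The receptor upstream of that potassium channel rose with it. Chrm2, the muscarinic receptor of the atrium, was at 101, 110.2 and 61.1 CPM at E14.5 and at 339.9, 346 and 373 CPM at P4 (1.99 ± 0.25, adjusted p = 2e-05). Gnao1, an inhibitory G protein subunit, rose from 172, 194 and 190.3 to 394, 377 and 492 CPM (1.17 ± 0.17, adjusted p = 9.9e-05), and Rgs6, which shortens the muscarinic signal, by 1.12 ± 0.30 (adjusted p = 0.026). In all, 12 of 35 genes of receptors and cyclic AMP signalling rose and 0 fell (median 0.40), and 12 rose without P4 replicate 3. The phosphodiesterase genes Pde1c, Pde2a, Pde3a and Pde4b, which break down cyclic nucleotides, rose by 2.04, 1.68, 1.19 and 0.99. Akap6, an anchor of protein kinase A at the nuclear envelope, rose by 1.46 ± 0.22 (adjusted p = 0.00015) and the alpha-1B adrenergic receptor gene Adra1b from 1.69, 0.184 and 3.92 to 11.5, 18 and 6.89 CPM (adjusted p = 0.017). The largest rise in the list was Rgs5, at 16.4, 14.6 and 1.87 CPM at E14.5 and 473, 173 and 283 CPM at P4 (4.96 ± 0.60, adjusted p = 1.3e-05). Rgs5 is also a pericyte marker, and of 12 markers of smooth muscle and pericytes 2 rose and 1 fell, with a summed level of 1063 to 1318 CPM at E14.5 and 1078 to 1768 CPM at P4. The numbers were 1 and 0 without P4 replicate 3, P4 replicate 2 or E14.5 replicate 3, 1 and 1 without P4 replicate 1, and 2 and 0 without E14.5 replicate 1.

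**Figure D3:**
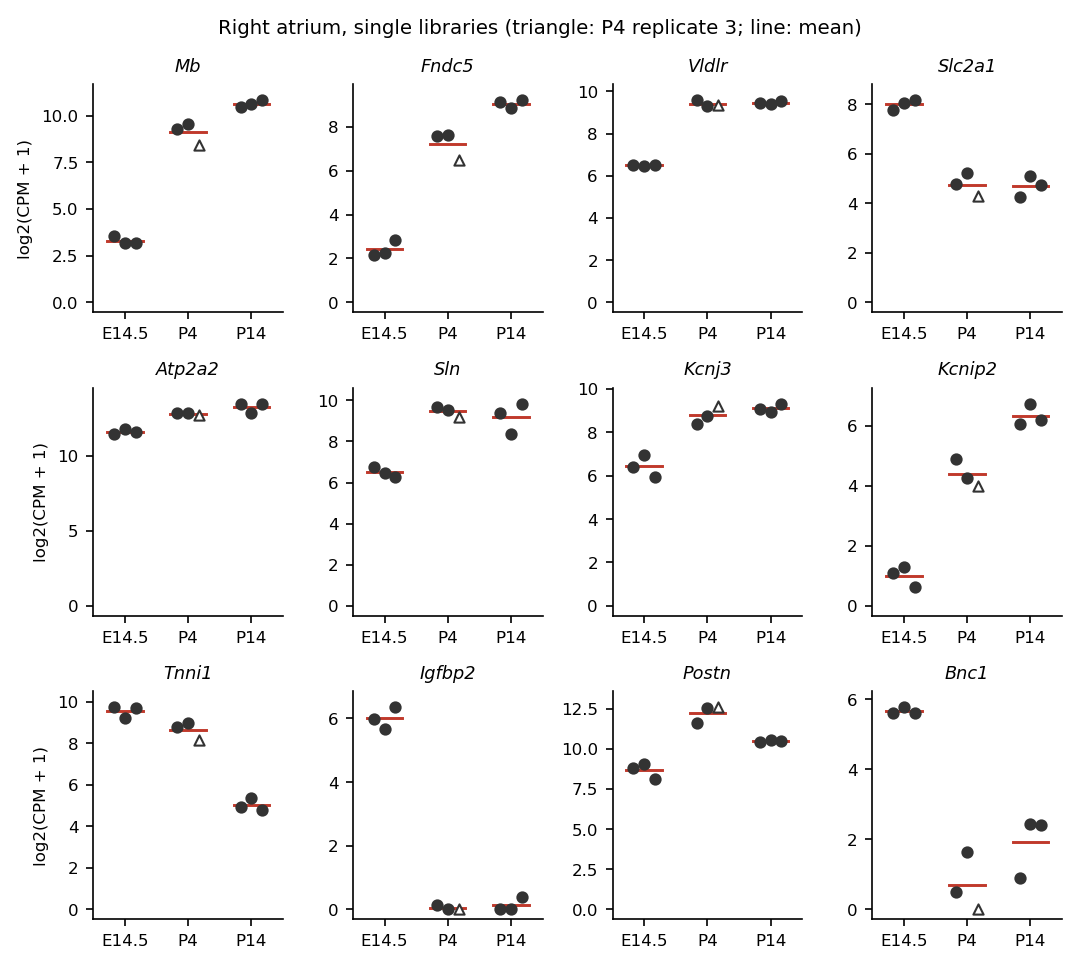
Levels of 12 genes in single RA libraries at E14.5, P4 and P14, as log2(CPM + 1), with the mean of each group as a red line and P4 replicate 3 as an open triangle. The P4 libraries of Mb, Vldlr and Postn lie above all E14.5 libraries, and those of Slc2a1, Igfbp2 and Bnc1 lie below them.

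Among genes of atrial identity and secretion, 6 of 28 rose and 3 fell, and 4 and 3 without P4 replicate 3. Without E14.5 replicate 3, 2 rose. Nppa, the gene of atrial natriuretic peptide, was at 406, 320.3 and 365 CPM at E14.5 and 1161, 1164 and 449.6 CPM at P4. All 3 P4 values were above the E14.5 values, but P4 replicate 3 was far below the other two, and the difference of 1.22 ± 0.59 did not pass (adjusted p = 0.27, and 0.19 without that library). Nppb, the gene of the second peptide, overlapped between the stages (0.20, adjusted p = 0.92) and rose between P4 and P14 (2.76, adjusted p = 0.017). Pam encodes the enzyme that amidates peptide hormones and is a main protein of atrial secretory granules, and rose by 0.84 ± 0.21 (adjusted p = 0.017, and 0.057 without P4 replicate 3). Bmp10, a ligand made by right atrial myocytes, rose from 112, 162 and 77.4 to 280.4, 544 and 622 CPM (2.02 ± 0.50, adjusted p = 0.014, and 0.081 without P4 replicate 3). The secreted proteins clusterin (Clu) and Dkk3 rose by 2.53 ± 0.47 (adjusted p = 0.0013) and 1.83 ± 0.46 (adjusted p = 0.014). The transcription factor genes Nr2f1 and Irx5 fell (−1.77, adjusted p = 0.002, and −2.31, adjusted p = 0.018), and Cited1, a transcriptional coregulator, fell from 169.8, 150.5 and 233 to 25.3, 29.2 and 10.3 CPM (−3.13 ± 0.43, adjusted p = 5.8e-05). Nkx2-5 overlapped between the stages (0.05, adjusted p = 0.97).

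Of 59 genes of mitosis and its control, 11 fell and 0 rose, and all 59 differences were below 0 (median −1.05). In 50 of the 59 the P4 libraries lay wholly below the E14.5 libraries, where the share over all genes was 15.7%. The summed level of the list was 5697 to 7072 CPM at E14.5 and 2935 to 3339 CPM at P4, with P4 replicate 3 inside the P4 range at 3111 CPM. Its calls varied with the library left out, and 2 genes were called without P4 replicate 3 (median −0.99). Without E14.5 replicates 1, 2 and 3 the numbers were 2, 5 and 1, and without P4 replicates 1 and 2 they were 6 and 7. With edgeR 6 were called and with sarcomere genes set equal 15.

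Mki67, whose protein Ki-67 coats mitotic chromosomes, was at 1063, 1114 and 1265 CPM at E14.5, 525, 532 and 573 CPM at P4 and 129.7, 147 and 168 CPM at P14 (−1.07 ± 0.26 in the perinatal step, adjusted p = 0.012). Ube2c, the ubiquitin-conjugating enzyme of the anaphase-promoting complex, was at or above 100 CPM in each E14.5 library, with 181 and 189 CPM in replicates 1 and 3, and at 53.4, 66.3 and 46.0 CPM at P4 (−1.45 ± 0.33, adjusted p = 0.0077). Ccnb1, cyclin B1, was at 91.2, 71.5 and 129 CPM at E14.5 and 21.8, 37.2 and 29.7 CPM at P4 (−1.68 ± 0.45, adjusted p = 0.024), and Bub1b, a kinase of the spindle checkpoint, at 80.6, 65.6 and 97.5 CPM at E14.5 and 30.3, 29.0 and 16.1 CPM at P4 (−1.68 ± 0.43, adjusted p = 0.017). Mki67 and Ube2c were the 2 genes called without P4 replicate 3, where Ccnb1 had an adjusted p of 0.066 and Bub1b of 0.099. Of 56 genes of DNA replication and its regulation, 7 fell and 0 rose (median −0.81), and 1 fell without P4 replicate 3, the cyclin D3 gene Ccnd3 (−1.15 ± 0.25, adjusted p = 0.005, from 158, 153 and 143 to 69.4, 67.8 and 65.6 CPM). Dnmt1, which copies DNA methylation at the fork, fell (log2 difference −1.16, adjusted p = 0.0062, and 0.051 without that library). Without E14.5 replicates 1, 2 and 3 the replication list had 2, 3 and 2 falls. Summed erythroid markers were at 30785, 4656 and 41536 CPM at E14.5 and 935, 9739 and 2639 CPM at P4, and their part in the mitosis and replication values was not tested.

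Genes of mitosis share promoter elements, so the promoters of these 4 genes are shown. The elements are the cell cycle genes homology region (CHR), TTTGAA or its reverse complement TTCAAA, and the CCAAT box, CCAAT or its reverse complement ATTGG, which are bound by MuvB complexes such as DREAM and by NF-Y respectively. The 150 bases before the RefSeq start site of each gene (build GRCm38.p6) are printed on the gene's strand, with both elements in capitals.
Ube2c, chr2:164769779-164769928, plus strand: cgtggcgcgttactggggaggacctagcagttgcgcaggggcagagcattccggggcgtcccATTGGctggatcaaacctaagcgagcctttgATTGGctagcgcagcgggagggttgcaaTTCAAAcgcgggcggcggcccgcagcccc
Mki67, chr7:135716380-135716529, minus strand: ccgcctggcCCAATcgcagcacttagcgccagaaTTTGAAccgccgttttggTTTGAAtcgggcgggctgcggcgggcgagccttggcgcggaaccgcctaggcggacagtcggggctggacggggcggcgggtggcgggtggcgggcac
Bub1b, chr2:118598061-118598210, plus strand: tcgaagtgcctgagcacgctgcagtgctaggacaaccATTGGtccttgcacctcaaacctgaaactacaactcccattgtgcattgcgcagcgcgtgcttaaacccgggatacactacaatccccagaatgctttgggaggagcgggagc
Ccnb1, chr13:100786487-100786636, minus strand: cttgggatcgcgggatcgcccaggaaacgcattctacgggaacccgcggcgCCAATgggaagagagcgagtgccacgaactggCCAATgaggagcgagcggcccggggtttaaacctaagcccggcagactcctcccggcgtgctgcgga
The stretch of Ube2c held 1 CHR and 2 CCAAT boxes, that of Mki67 held 2 CHR and 1 CCAAT box, that of Ccnb1 held 2 CCAAT boxes and that of Bub1b held 1. A CHR and a CCAAT box can overlap by an end letter. Over promoters of 300 bases (250 before the start and 50 after it), a CHR was present in 36 of 51 promoters of 49 matched mitosis genes (70.6%), in 9 of 52 promoters of 43 replication genes (17.3%) and in 17.9% of all 32851 promoters. A CCAAT box was present in 70.6%, 59.6% and 37.4%. The E2F core GCGGGAA, or TTCCCGC, was in 3.92% of mitosis promoters, 38.5% of replication promoters and 4.60% of all promoters. A match describes letters and shows no bound factor.

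**Figure D4:**
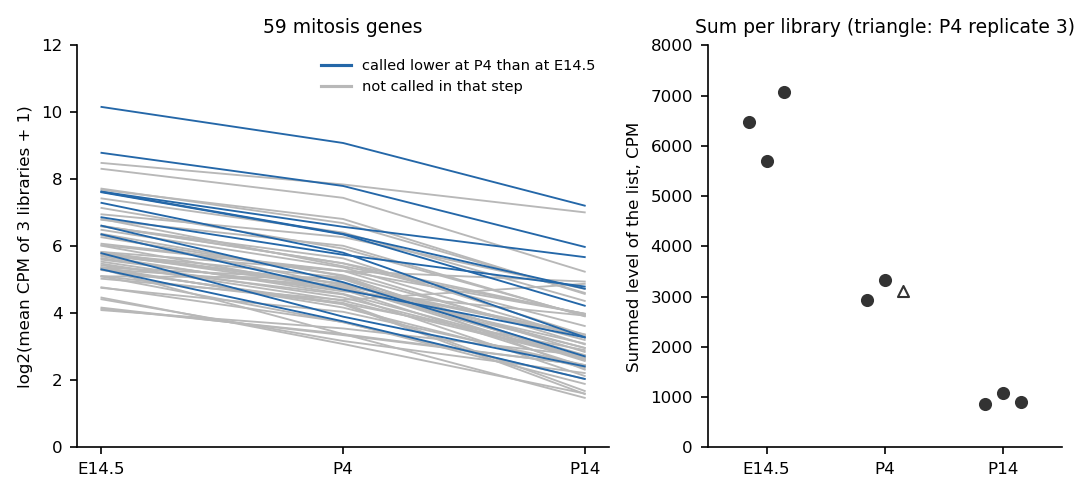
The left panel shows the 59 mitosis genes as log2 of the mean CPM of 3 RA libraries plus 1 at each stage, with the 11 genes called lower at P4 in blue. The right panel shows the summed CPM of the list in each library, between 5697 and 7072 at E14.5, 2935 and 3339 at P4, and 860 and 1088 at P14.

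The inhibitor of the cell cycle with the largest change fell as well. Cdkn1c, which encodes p57, was at 960.1, 727 and 714 CPM at E14.5 and 64.8, 83.1 and 49.1 CPM at P4 (−3.61 ± 0.35, adjusted p = 5.7e-07). Of 21 genes of cell cycle inhibition and exit, 0 rose and 2 fell (median 0.19), and 13 of the differences were above 0. The other fall was that of Meis2 (−1.12 ± 0.27, adjusted p = 0.01), a homeobox factor. Without E14.5 replicate 2, 1 fell.

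Cdkn1c is also an imprinted gene. Such genes are expressed from a single parental copy, and many govern fetal growth. Of 23 tested, 11 fell and 0 rose, and all 23 differences were below 0 (median −1.23). Without P4 replicate 3, 9 fell (median −0.96), and 7 without E14.5 replicate 2. The summed level was 25947 to 29666 CPM at E14.5, 10617 to 13738 CPM at P4 and 4026 to 4736 CPM at P14. Mest was at 6213, 5835 and 5274 CPM at E14.5 and at 587, 778 and 985 CPM at P4 (−2.91 ± 0.32, adjusted p = 3.6e-06). H19, a maternally expressed noncoding RNA, was at 4619, 5159 and 4694 CPM at E14.5 and 2390, 1532 and 1463 CPM at P4 (−1.46 ± 0.27, adjusted p = 0.0013), and Grb10, an adaptor that restrains insulin signalling, fell (log2 difference −1.35, adjusted p = 5.2e-05). Igf2r, the receptor that clears IGF2, fell from 2635, 2637 and 2411 to 878, 733 and 797 CPM (−1.68 ± 0.15, adjusted p = 2.1e-07), and its reads cannot be told apart from those of its antisense partner. Dlk1, a transmembrane protein of precursor cells, fell from 106, 103 and 95 to 2.34, 0.419 and 5.6 CPM (−5.02 ± 0.79, adjusted p = 0.00025). Plagl1, a zinc finger factor, fell (log2 difference −1.28, adjusted p = 0.0073) and Zim1 fell (log2 difference −2.57, adjusted p = 0.0049).

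Igf2, the growth factor of this group, did not pass in the perinatal step. It was at 6113, 8141 and 8664 CPM at E14.5 and 7025, 5909 and 4306 CPM at P4 (−0.42 ± 0.23, adjusted p = 0.33), with overlap between the stages, and fell between P4 and P14 (−1.52, adjusted p = 0.00039). Igf1 was at 247, 325 and 261 CPM at E14.5 and 200.4, 139 and 188 CPM at P4 (−0.66, adjusted p = 0.098). Of the genes for their binding proteins, Igfbp2 and Igfbp7 passed. Igfbp2 stood at 61.7, 50.3 and 80.7 CPM in the E14.5 libraries and at 0.102, 0 and 0 CPM in the P4 libraries, which is 1726 reads against 1 read. The ratio was 1625-fold, with an exact 95% counting interval of 291 to 64203 that ignores the spread between libraries (−5.95 ± 0.50 on the log2 scale, adjusted p = 9.2e-08). Igfbp7, a secreted binding protein of vessels and matrix, rose from 5.30, 3.87 and 4.28 to 96.2, 161 and 137 CPM (4.57 ± 0.42, adjusted p = 3.1e-07), and the protease gene Htra1 from 2.71, 2.03 and 5.17 to 50.1, 39.2 and 19.4 CPM (3.08 ± 0.40, adjusted p = 3.1e-05). Of the 16 genes in this list 3 rose and 3 fell, with the same numbers without P4 replicate 3.

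A list of 30 genes typical of fetal tissues had 8 falls and 0 rises (median −0.76), and 4 falls without P4 replicate 3. Without E14.5 replicates 1, 2 and 3 the falls numbered 4, 5 and 2, and without P4 replicate 2 they numbered 3. Igf2bp1 and Igf2bp3 encode RNA-binding proteins of embryonic tissues. Igf2bp1 was at 91.6, 97.3 and 112 CPM at E14.5 and at 14.8, 9.85 and 10.8 CPM at P4 (−3.0 ± 0.44, adjusted p = 0.00011), and Igf2bp3 fell (log2 difference −1.61, adjusted p = 0.011). Lin28b, which blocks the let-7 microRNAs, fell from 20.4, 11.8 and 18.1 to 2.95, 0.629 and 0.645 CPM (−2.98 ± 0.73, adjusted p = 0.013, and 0.059 without P4 replicate 3). The chromatin protein gene Hmga2, a let-7 target, fell (log2 difference −2.30, adjusted p = 0.034, and 0.12 without that library).

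Hormone and clock genes had called rises and no called falls by limma, where 3.23% of all genes tested rose and 3.56% fell. Of 27 genes of thyroid hormone, glucocorticoid and related signalling 4 rose (median 0.17). Without P4 replicate 3 the number was 3 (median 0.02), and without E14.5 replicate 3 it was 2. At an unadjusted p under 0.05 by limma, 4 of the 27 were higher and 4 lower. Klf9, a target of both hormones, was at 1.92, 4.42 and 3.03 CPM at E14.5 and at 29.5, 25.2 and 85.9 CPM at P4 (3.36 ± 0.40, adjusted p = 9.4e-06), with P4 replicate 3 the highest. Nr3c2, the mineralocorticoid receptor gene, rose by 2.17 ± 0.40 (adjusted p = 0.0013) and Nr3c1, the glucocorticoid receptor gene, by 0.79 ± 0.19 (adjusted p = 0.014, and 0.079 without P4 replicate 3). Of 19 genes of the circadian clock 4 rose (median 0.39), and 3 without P4 replicate 3. Npas2, a partner of the core clock, was at 0.902, 0.369 and 0.445 CPM at E14.5 and 15.4, 10.4 and 3.66 CPM at P4 (2.62 ± 0.50, adjusted p = 0.0018), and Rora and Nr1d2, nuclear receptors of the clock, rose by 1.36 (adjusted p = 0.0018) and 1.17 (adjusted p = 0.0041). The time of day of collection is not given in the labels.

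Of 25 genes of the hypoxia response 3 rose and 2 fell, with the same numbers without P4 replicate 3. Hif3a, a member of the hypoxia-inducible factor family, fell from 431, 676 and 313 to 48.3, 43.7 and 59.8 CPM (−3.14 ± 0.41, adjusted p = 3.5e-05), while Hif1a did not pass (−0.36, adjusted p = 0.39). Of genes that hypoxia can induce, Slc2a1 fell, whereas Adm, the gene of the vasodilator adrenomedullin, rose from 4.40, 12.3 and 5.70 to 80.4, 52.0 and 46.5 CPM (2.91 ± 0.50, adjusted p = 0.00071) and Vegfa, the vessel growth factor, from 28.9, 66.3 and 45.4 to 105, 104 and 172 CPM (1.46 ± 0.27, adjusted p = 0.0013).

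Among the lists, that of matrix genes had the most called rises. Of 60 genes of collagens, elastic fibres and proteoglycans, 25 rose and 4 fell (median 0.85), and 20 and 2 without P4 replicate 3. The falls also numbered 2 without E14.5 replicate 1 or 3. Dpt, or dermatopontin, a small matrix protein of fibroblasts, had the largest rise of all genes called, from 1.58, 0 and 0.356 CPM at E14.5 to 171, 408 and 393 CPM at P4 (7.64 ± 0.52, adjusted p = 5.5e-09). Postn, or periostin, was at 442, 530.5 and 282 CPM at E14.5 and 3130, 6102 and 6212 CPM at P4 (3.60 ± 0.41, adjusted p = 5e-06) and fell again by P14 (−1.75, adjusted p = 0.012). Col15a1, a collagen near basement membranes, rose from 2.82, 6.26 and 4.72 to 72.0, 174 and 258 CPM (4.78 ± 0.36, adjusted p = 2.2e-08). Col3a1 was at 612, 728 and 703 CPM at E14.5 and 1513, 4374 and 4528 CPM at P4 (2.19 ± 0.34, adjusted p = 0.00019), and P4 replicate 1 was the lowest P4 library for each of these 4 genes. The elastin gene Eln rose by 3.19 ± 0.64 (adjusted p = 0.0025), and Mfap5, a microfibril protein gene, by 3.84 ± 0.49 (adjusted p = 2.1e-05).

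A few matrix genes peaked at P4. Tnc, or tenascin C, was at 35.1, 50.7 and 36.3 CPM at E14.5, 353, 745 and 564 CPM at P4 and 94.6, 128 and 73.2 CPM at P14 (3.69 ± 0.63, adjusted p = 0.00059, then −2.45, adjusted p = 0.022). Nov, a matricellular protein now named Ccn3, was at 0.338, 0.369 and 0.356 CPM at E14.5, 109, 169.5 and 160.5 CPM at P4 and 19.3, 20.3 and 14.6 CPM at P14 (6.74 ± 0.61, adjusted p = 2.1e-07, then −2.94, adjusted p = 0.0053). Has2, which makes hyaluronan, was at 0.564, 0.737 and 0.356 CPM at E14.5, 9.05, 9.22 and 12.3 CPM at P4 and 1.61, 1.43 and 0.738 CPM at P14 (adjusted p = 0.0009 and 0.0079). Col24a1, a minor fibrillar collagen, rose by 5.20 ± 0.76 (adjusted p = 0.0001) and then changed by −2.68 (adjusted p = 0.037). Hapln1, which links hyaluronan to proteoglycans in the cardiac jelly, went the other way, from 16.5, 14.7 and 24.6 to 1.12, 1.36 and 1.72 CPM (−3.0 ± 0.66, adjusted p = 0.0057), and Fmod, or fibromodulin, from 49.9, 33.7 and 63.6 to 2.65, 13.3 and 4.74 CPM (−2.86 ± 0.53, adjusted p = 0.0014).

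Of 14 fibroblast markers, 10 rose and 0 fell (median 1.97), and 9 rose without P4 replicate 3. Their summed level was 3345 to 3944 CPM at E14.5 and 8595, 18327 and 17142 CPM in the 3 P4 libraries, and several markers are themselves matrix genes in the list above. Among the markers that encode receptors and no matrix, the collagen receptor gene Ddr2 rose from 16.1, 11.8 and 14.5 to 53.1, 82.9 and 55.7 CPM (2.08 ± 0.33, adjusted p = 0.0003), while Pdgfra was at 37.9, 66.5 and 39.5 CPM and 46.0, 87.7 and 83.3 CPM and did not pass (0.58 ± 0.26, adjusted p = 0.23). How far the matrix rises follow the number of fibroblasts was not tested. Podn and Aspn, small leucine-rich proteoglycans, were also among the 15 largest rises, at 5.64 and 4.77, as were the secreted inhibitor gene Pi15 at 5.16, the amine oxidase gene Aoc3 at 5.65, the transporter gene Abca8a at 5.6, the melanocyte antigen gene Mlana at 5.0 and Ndst3 of heparan sulfate synthesis at 4.84. Abca8a has close paralogs that can share reads.

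The epicardium is the mesothelial cell layer over the heart. Of 12 of its markers, 7 fell and 0 rose (median −2.72), and 5 fell without P4 replicate 3. Their summed level was 497 to 606 CPM at E14.5 and 135 to 284 CPM at P4. Bnc1, a zinc finger factor of mesothelium, was at 47.9, 53.8 and 48.1 CPM at E14.5 and at 0.407, 2.10 and 0 CPM at P4 (−4.96 ± 0.86, adjusted p = 0.00072). Upk3b, a uroplakin of its surface, was at 98.7, 114 and 162 CPM at E14.5 and 0.509, 15.8 and 0 CPM at P4 (−5.39 ± 1.14, adjusted p = 0.0041), with the reads at P4 almost all in replicate 2. Wt1, the epicardial transcription factor, fell from 44.9, 58.2 and 49.3 to 19, 10.9 and 4.52 CPM (−2.23 ± 0.51, adjusted p = 0.008, and 0.063 without P4 replicate 3). Several of the 15 largest falls, among them Lrrn4 at −5.10, Upk1b at −4.60, Cdh3 (P-cadherin) at −4.82, Egfl6 at −4.35, Lrp2 at −4.28, Rspo1 at −4.25 and Npnt (nephronectin) at −4.08, were at 8.69 CPM or less in each P4 library. Lrrn4 and Upk1b belonged to the marker list, and Cdh3, Egfl6, Lrp2, Rspo1 and Npnt did not. How much of the outer layer each capture held was not tested.

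Among other cell types, embryonic globin genes fell. Hbb-y was at 1333, 287 and 4387 CPM at E14.5 and 6.61, 1.78 and 0 CPM at P4 (−8.75 ± 1.14, adjusted p = 3.2e-05), and Hba-x was at 491, 104 and 1175 CPM at E14.5 and 1.73, 2.83 and 0 CPM at P4 (−7.49 ± 0.82, adjusted p = 3.6e-06). Globin genes have near-identical copies, so these values are uncertain, and 3 of 14 erythroid markers were called lower. That number was 2 without P4 replicate 3 or E14.5 replicate 1 or 3, and 11 without E14.5 replicate 2 or P4 replicate 2. Of 16 endothelial markers 2 rose and 1 fell (median −0.13), with 7 differences above 0 and 9 below. The numbers were 1 and 0 without P4 replicate 3 or E14.5 replicate 1 or 2. Their summed level was 2369 to 3083 CPM at E14.5 and 2120 to 2698 CPM at P4. The largest rise among them was that of Fabp4, a fatty acid binding protein of capillaries and fat cells. It went from 1.69, 0 and 7.12 to 46.9, 69.5 and 36.2 CPM (4.16 ± 0.49, adjusted p = 8.6e-06). Of 17 macrophage markers 2 rose by limma and edgeR, with 7 at an unadjusted p under 0.05. By limma 0 rose without P4 replicate 3, P4 replicate 2 or E14.5 replicate 1, and 1 without E14.5 replicate 2 or 3. The 2 genes were Mrc1 (1.28, adjusted p = 0.036) and Cd163, which had 0 reads at E14.5 and was at 2.04, 3.46 and 6.67 CPM at P4, at least 29.7-fold higher against 3 reads over the E14.5 group. The sum of the macrophage list was 131 to 250 CPM at E14.5 and 301 to 414 CPM at P4. Cd74, the invariant chain of antigen presentation, rose from 0.789, 0 and 0.445 to 18.9, 30.6 and 48.0 CPM (4.51 ± 0.80, adjusted p = 0.0009). It was the 1 called gene among 24 interferon-stimulated and antigen presentation genes. Their median was 0.01, with 13 differences above 0 and 11 below. Of 9 neuron markers 1 rose and 2 fell, and 1 and 1 without P4 replicate 3, P4 replicate 1 or E14.5 replicate 1 or 3. Dbh, the enzyme that makes noradrenaline, was at 0.902, 0.553 and 0 CPM at E14.5 and at 16.2, 17.1 and 16.6 CPM at P4 (3.62 ± 0.43, adjusted p = 1.1e-05), while Snap25 fell from 2.59, 4.05 and 3.12 to 0.305, 0 and 0.215 CPM. Glial, ventricular and lymphoid or granulocyte markers had no called gene by limma, with 2, 0 and 0 of them at an unadjusted p under 0.05, and 0 in edgeR.

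Signalling genes moved in both directions, with 7 of 56 genes of BMP, TGF-beta, Wnt, Notch and FGF signalling higher and 8 lower, and 4 and 5 without P4 replicate 3. The numbers were 4 and 4 without E14.5 replicate 1, 6 and 4 without E14.5 replicate 2, 3 and 5 without E14.5 replicate 3, and 3 and 5 without P4 replicate 2. Bmp7 fell from 130.3, 142 and 135 to 12.8, 6.18 and 10.6 CPM (−3.71 ± 0.41, adjusted p = 3.6e-06) and Wnt5a, a noncanonical Wnt ligand, from 72.3, 101 and 101 to 22.7, 37.0 and 19.1 CPM (−1.80 ± 0.38, adjusted p = 0.0044). Heyl, a Notch target, rose from 11.5, 10.9 and 8.28 to 77.4, 58.4 and 42.0 CPM (2.39 ± 0.43, adjusted p = 0.00092). Fgf1 rose by 1.35 ± 0.30 (adjusted p = 0.0058), and Fgf12, an intracellular partner of sodium channels, by 2.02 ± 0.50 (adjusted p = 0.014).

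To see where RA differed from its neighbour, its step was set against that of SAN between the same stages, in which 1448 genes were called (8.24%), 676 higher (3.85%) and 772 lower (4.39%). The difference of the 2 steps was called for 202 genes (1.15% of those tested), 95 with a higher step in RA (0.541%) and 107 with a lower one (0.609%), and for 151 without RA P4 replicate 3. It was 73 and 151 with sarcomere genes set equal. The count was 144 without SAN E14.5 replicate 1 and 120 without SAN E14.5 replicate 2, and 128, 127 and 129 without RA E14.5 replicates 1, 2 and 3.

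Fndc5 had the lowest adjusted p of all genes in this comparison. It rose in RA by 4.81 and was at −0.70 in SAN (difference 5.51 ± 0.54, adjusted p = 1.7e-05). Mb was at 0.89 in SAN (difference 4.90 ± 0.97, adjusted p = 0.011). Among genes of conduction and secretion, Gja1 was at 1.16 in RA and −1.94 in SAN (difference 3.10 ± 0.46, adjusted p = 0.0012). Nppa was at 1.22 and −2.54 (difference 3.76 ± 0.84, adjusted p = 0.026) and Bmp10 at 2.02 and −1.59 (difference 3.61 ± 0.70, adjusted p = 0.0096). In the acetylcholine pathway, Kcnj3 was at 2.35 and −0.13 (difference 2.48 ± 0.45, adjusted p = 0.0059), whereas the difference for Chrm2 did not pass (0.94 ± 0.35, adjusted p = 0.3). For calcium, Sln and Ryr2 had a higher step in RA (2.68 and 1.24), and the difference for Atp2a2 did not pass (0.27 ± 0.26, adjusted p = 0.8).

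Of the metabolic genes, Slc2a1 fell in both tissues and further in RA (difference −1.65 ± 0.36, adjusted p = 0.023), while Cd36 rose less in RA than in SAN (−1.04 ± 0.24, adjusted p = 0.031). Acsl1 was at 2.52 in RA and 2.71 in SAN, a difference that did not pass (−0.20 ± 0.36, adjusted p = 0.91). Igf2 was at −0.42 in RA and −2.11 in SAN (1.68 ± 0.32, adjusted p = 0.008). The median of the 59 mitosis genes was −1.05 in RA and −1.62 in SAN, and 0 of the 59 had a called difference of the steps. Of the 12 epicardial markers, 5 had a lower step in RA, and 0 were called in the step of SAN itself (median 0.42). Upk3b was at −5.39 in RA and 2.20 in SAN (−7.59 ± 1.61, adjusted p = 0.018), and Lrrn4 at −5.10 and 2.44 (−7.54 ± 1.44, adjusted p = 0.0081).

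**Figure D5:**
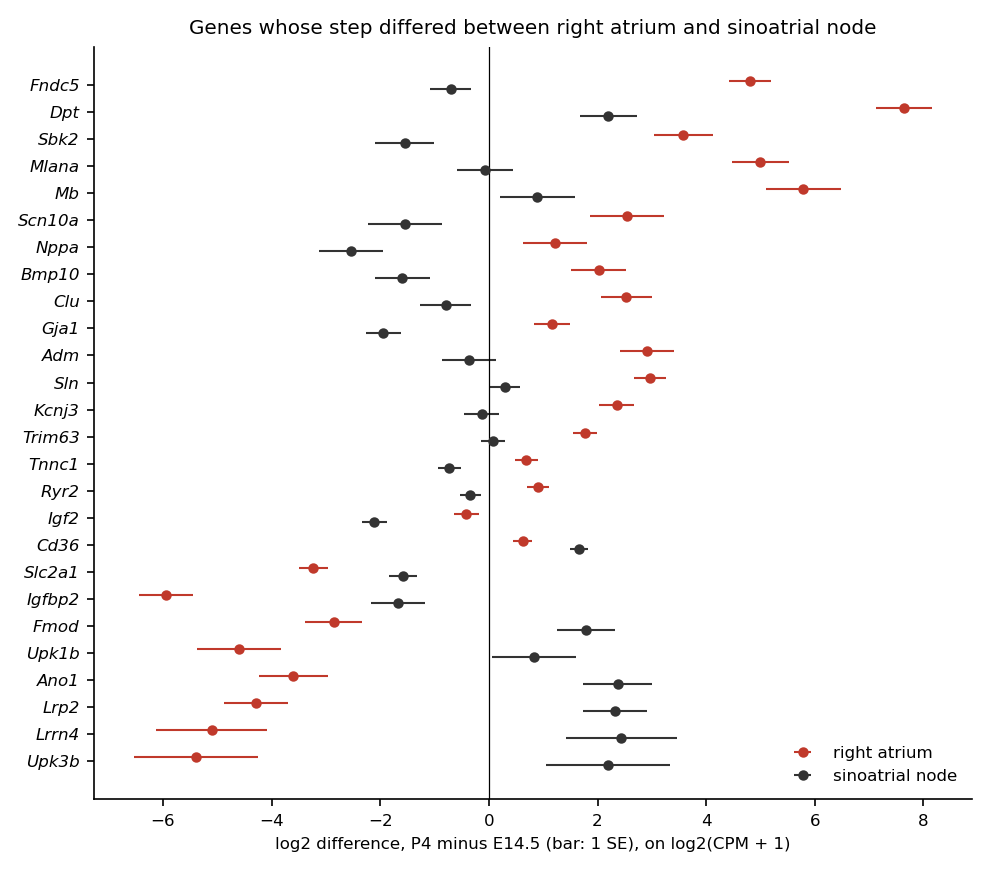
The log2 difference between P4 and E14.5 in RA (red) and in SAN (black) for 26 genes with a called difference between the 2 steps, with bars of 1 SE. Gja1, Nppa and Bmp10 lie above 0 in RA and below it in SAN, and the epicardial genes Upk3b and Lrrn4 lie the other way round. Upk3b and Lrrn4 were not called in the step of SAN.

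The P14 libraries show where the P4 values stood on the way. From P4 to P14, 1188 genes were called (6.76%), 236 higher (1.34%) and 952 lower (5.42%), and 676 without P4 replicate 3. The count was 704 without P4 replicate 2, and 742, 632 and 764 without P14 replicates 1, 2 and 3. The balance depended on scaling, since equal upper quartiles gave 425 higher and 299 lower and moved the median of all genes from −0.24 to 0.00, and edgeR gave 310 and 231. Both steps use the P4 libraries, so a chance deviation at P4 enters them with opposite signs. Of the mitosis list 41 of 59 were called lower in this step, and of the imprinted list 13 of 23. Of the citric acid cycle and respiratory list 12 of 59 were called higher and 1 lower, where the earlier step had 4 and 0. For Mb and Bmp10 each P14 library was above each P4 library, but neither difference passed (1.55 with adjusted p = 0.18, and 1.35 with adjusted p = 0.11). Podn rose by 1.72 (adjusted p = 0.014). The differences of Vldlr and Slc2a1 did not pass (0.05, adjusted p = 0.9, and −0.07, adjusted p = 0.91).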

How the data were processed

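RNA was measured in laser-captured RA and SAN, 3 libraries per tissue and stage. Per the labels' protocols, RNA was primed with random hexamers and poly-T and amplified isothermally, with no strand marking described, and TopHat2 2.0.6, edgeR and the build mm8 are named in the submitters' processing notes. The authors deposited 1 normalized signal value per gene and library. Low values lie on whole multiples of 1 read in every library (within 0.1 read, 100% of values), so reads were recovered, and values were divided by 24.3 to a CPM scale. Genes at 1 CPM or more in at least 3 of the 18 libraries were tested (17568 of 20870) on log2(CPM + 1) with limma 3.58.1 in R 4.3.3, with a trend and 6 group means. The RA contrast, its difference from SAN and the P14 contrast came from this fit. The fit was tested on simulated data.

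Alternatives were other pseudocounts (0.25 and 4), no filter, fewer groups, other scalings, library weights, a replicate block, leaving out each library, and edgeR 4.0.16 and DESeq2 1.42.0 on recovered reads. On those reads edgeR called 911 genes. The members and lists were chosen with earlier results of these data known. Named were the 15 largest rises and falls with non-overlapping libraries and a group mean of at least 5 CPM, the 6 largest differences from SAN in each direction, up to 8 members per list by p, a fixed set of atrial genes and isoform pairs, and some list members without a call. Gene models without a proper symbol and some multigene families stay out of the largest changes. Promoters come from RefSeq (GRCm38.p6), matched by exact symbol, which found 49 of 59 mitosis genes and 43 of 56 replication genes. Of the 20870 symbols listed, 18799 were found among RefSeq gene names or synonyms. The 7 Isl1 libraries of the series and the P14 SAN values are not reported here, nor are results for a few single genes.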

Additional observations from a re-analysis of the deposited data

Results flagged for a closer look

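Named genes were set apart where the change from E14.5 to P4 differed between RA and SAN, by a test of the difference itself (limma, adjusted p under 0.05 over all genes). There were 48 of 185 named genes, each with the RA step minus the SAN step on the log2 scale, where the share over all genes tested was 1.15%. Some genes were named because they had the largest differences from SAN in this same test, so the 2 shares cannot be compared. The step was higher in RA for 28. Among muscle and energy genes these were Fndc5 at 5.51, Mb at 4.90, the kinase gene Sbk2 at 5.13, Trim63 at 1.70, Tnnc1 at 1.42, Vldlr at 1.28, Ryr2 at 1.24 and Sln at 2.68. Among genes of conduction and signalling they were Scn10a at 4.08, Gja1 at 3.10, Kcnj3 at 2.48, Fgf12 at 3.61 and Prkar1a, a regulatory subunit of protein kinase A, at 1.11. Among secreted factors and their processing they were Nppa at 3.76, Bmp10 at 3.61, Clu at 3.32, Adm at 3.27, Pam at 1.72, Igf2 at 1.68 and Pi15 at 3.26. Among matrix and fibroblast genes they were Dpt at 5.44, Col24a1 at 4.35, Podn at 4.06, Nov at 3.81, Has2 at 3.41, Abca8a at 2.35 and Pdgfra at 1.56. The melanocyte antigen gene Mlana was at 5.08.

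The step was lower in RA for 20. Genes of the epicardium and mesothelium were Upk3b at −7.59, Lrrn4 at −7.54, Msln at −5.60, Upk1b at −5.43 and Bnc1 at −5.18. The endocytic receptor gene Lrp2 was at −6.61, Fam163a at −6.19, the chloride channel gene Ano1 at −5.97, the synaptotagmin gene Syt13 at −5.96, Rspo1 at −5.21, Cdh3 at −4.07, the calcitonin receptor gene Calcr at −3.83 and Ccdc144b, which has near copies, at −3.53. Matrix genes were Efemp1 at −5.17, Fmod at −4.65, Npnt at −2.99 and Tnxb at −2.01. Igfbp2 was at −4.29, Slc2a1 at −1.65 and Cd36 at −1.04.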

How the results depend on the processing

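No named gene that passed the test changed direction under any alternative. Of the 166 named genes called in the perinatal step, between 129 and 166 kept their call under each alternative, with the fewest without E14.5 replicate 3 (129), 139 without P4 replicate 3 and 153 with edgeR. Library weights raised the number of called genes to 3117 in the perinatal step, to 445 for the difference from SAN and to 3191 for P14 against P4. DESeq2 called 403 genes for the difference from SAN. For P14 against P4 the number was 778 with the 2 groups alone, 724 with equal upper quartiles and 541 with edgeR. Leaving out a library gave 760 to 1104 calls in the perinatal step, 120 to 281 for the difference from SAN and 632 to 900 for P14 against P4. The causes were not tested. With the replicate number as a block the counts were 1155, 197 and 1088. Deviations from the group mean in same-numbered RA libraries of E14.5 and P4 correlated at −0.055, −0.098 and −0.066. Libraries of these stages cannot share an animal, so the correlations do not show whether RA and SAN libraries of a stage are paired. Whether same-numbered RA and SAN libraries came from the same heart was not tested. Counts of 3 reads or fewer limit the size of the largest falls, as for Calcr, with 1 read at P4 and a ratio of 453 (exact 95% counting interval 80.9 to 17919).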

Other observations

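Genes of iron and redox handling and of the immediate early response were outside the account above. Of 26 iron and redox genes 5 rose (median 0.27), and the same number without P4 replicate 3. Cp, the gene of the copper ferroxidase ceruloplasmin, was at 2.48, 0.737 and 2.32 CPM at E14.5 and 22.3, 60.8 and 49.5 CPM at P4 (3.94 ± 0.41, adjusted p = 1.5e-06). Tfrc, the transferrin receptor gene, was at 56.5, 62.8 and 77.8 and 97.0, 144 and 157 CPM (0.99 ± 0.22, adjusted p = 0.0065). The metallothionein gene Mt1 rose by 1.70 ± 0.43 (adjusted p = 0.016), the glutathione transferase gene Gstm1 by 2.27 ± 0.36 (adjusted p = 0.00023) and the extracellular superoxide dismutase gene Sod3 by 2.66 ± 0.47 (adjusted p = 0.00088). Gstm1 has close paralogs that can share reads.

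Of 29 immediate early and stress genes 2 rose and 1 fell (median 0.65). Without P4 replicate 3 or E14.5 replicate 1, 2 rose and 0 fell, and without P4 replicate 1, 4 rose and 1 fell. Egr1, a zinc finger factor induced within minutes of a stimulus, was at 4.06, 13.1 and 13.6 CPM and then at 30.4, 89.7 and 61.5 CPM (2.47 ± 0.47, adjusted p = 0.0017). Cyr61, a matricellular gene now named Ccn1, rose by 2.02 ± 0.43 (adjusted p = 0.0046). Such genes can also respond to handling of the tissue, which was not tested. Among the remaining large falls, the steroid dehydrogenase gene Hsd3b6, which has near copies, had 771 reads over the 3 E14.5 libraries and 3 over the P4 libraries, a ratio of 242 (exact 95% counting interval 82.5 to 1176).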
